A study of Mus musculus with 51 samples.

Results

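Ephrins, semaphorins, Slits and netrins are guidance cues, and Eph receptors, plexins, neuropilins, Robos and Unc5 proteins receive them. The genes described here were chosen by symbol, as every Eph receptor, ephrin, semaphorin, plexin, neuropilin, Slit, Robo, netrin and Unc5 gene named in all 9 expression tables of the study. The rule used no measured value and found 68 of 24538 genes. They are 9 EphA and 5 EphB receptors, 5 A-type and 3 B-type ephrins, 20 semaphorins, 9 plexins, 2 neuropilins, 3 Slits, 4 Robos, 4 netrins and 4 Unc5 receptors.

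RNA-seq was made from mouse embryonic stem cells (mESCs) that were aggregated and then driven to cardiac mesoderm with Bmp4 at 20 ng/ml. Unmodified F1G4 cells (WT) were sampled as aggregates before Bmp4 (ES) and on days 1, 2 and 3, with 2 labelled samples for each stage. Lines lacking *Eomes* (*Eomes* KO), *T* (*T* KO) or both genes (*Eomes*/*T* dKO) were all made in F1G4 cells and sampled on days 2 and 3. A *Smad4* line of strain 129S/SvEvxC57BL/6 was sampled on days 1 and 2, as WT and as *Smad4* KO. All differentiated groups received Bmp4. *Eomes* and *T*, which encode T-box transcription factors of the primitive streak, were each disrupted by removing the promoter and the first exon with paired nickases. The dKO line was derived from the *Eomes* KO line. *Smad4*, which encodes the Smad partner shared by BMP and Nodal signals, lost its first exon through Cre, and the WT cells of that line carry the floxed gene. Lines were grown from single picked clones, so a KO line and its clone cannot be told apart.

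The labels name 1 sample for each KO group and day, while the figure legends speak of averages over replicates, so the number of samples behind a KO column is unclear. Every table gives a single FPKM (a fragment count scaled to transcript length and library size) per gene and condition. No SD, n or test can be had from such columns, and depth is unknown, so each difference below compares columns and has no replicate check. A gene was examined where its FPKM was above 1 in either column, and was called where the log2 ratio was above 1 or below -1, which is the rule in the methods of the study. In bulk RNA, fewer cells of a type and less RNA per cell cannot be told apart.

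Eph receptors are receptor tyrosine kinases, and both they and the ephrins sit in cell membranes, so that signals pass where cells touch, often in both directions. A-type ephrins are held by a lipid anchor and B-type ephrins span the membrane. Semaphorins act through plexins, with neuropilins as co-receptors of most secreted class 3 semaphorins, Slits act through Robos, and netrin 1 acts through Dcc, neogenin and Unc5 receptors. In the gastrulating embryo these systems are known for sorting cells, keeping tissue boundaries and steering migrating cells, and later for axon and vessel growth.

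The labelled cell types were checked against marker genes. Over the F1G4 time course the 4 markers of nascent mesoderm (*T*, *Eomes*, *Mixl1*, *Mesp1*) summed to FPKM 1.30, 3.79, 54.2 and 360, and *Mesp1* had an FPKM of 0 before Bmp4 and again on day 2. Their sum was 2.45 to 7.94 in the 3 KO columns of day 3. Most of the WT sum was *T* (43.5 on day 2 and 320 on day 3). Since *T* and *Eomes* are the deleted genes, the sum cannot check cell type in those lines. Of the markers not deleted, *Mixl1* was at 0.0179 in *Eomes* KO, 0.105 in *T* KO and 0.173 in dKO cells against 15.6. *Mesp1* was at 0 in all 3 against 5.45. Of the endothelial list, *Cdh5*, *Tie1*, *Emcn* and *Kdr* stayed below 0.5 in all 14 columns. The paper counts *Kdr* among genes of lateral mesoderm and cardiac progenitors. Of the list for feeder fibroblasts, the collagens *Col1a1*, *Col1a2* and *Col3a1* stayed below 1 in all 14 columns. The other genes of these lists were higher, *Pecam1* up to 16.6 (in ES cells) and *Tek* up to 2.08, and *Thy1* up to 2.97, *Dcn* up to 2.02 and *Postn* up to 1.46. The neural gene *Sox1* stood at 0.914 to 7.17 in the 8 KO columns against 0.136 to 0.339 in the 6 WT columns. The 5 neural markers did not move together, and their sum, most of it *Otx2* and *Tubb3*, was 16.8 to 70.7 in WT and 23.5 to 86.1 in KO columns. *Eomes* was at 2.42 and 0.276 in *Eomes* KO cells on days 2 and 3 against 9.42 and 20.3 in WT. In these cells *T* was at 22.3 and 4.46 against 43.1 and 334. In dKO cells *Eomes* was at 1.24 and 0.346, and *T* at 2.77 and 1.93. *T* was at 6.64 and 3.00 in *T* KO cells against 44.8 and 323, while *Eomes* in *T* KO cells on day 2 was at 24.7 against 9.81. *Smad4* itself was at 39.4 and 46.8 in *Smad4* KO cells against 33.8 and 39.3, and a gene-wide FPKM does not check the loss of 1 exon. There *T* was at 0.891 on day 2 against 26.6 in WT.

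Some columns stood apart from the rest. Day 3 of *Eomes* KO and day 2 of *T* KO had 16.4% and 15.6% of all examined genes called, against 4.77% to 11.0% in the other 6 KO comparisons. In dKO cells on day 2 the median log2 ratio of genes in the top quartile of transcript length lay 0.58 below that of the bottom quartile, and in *Eomes* KO cells on day 3 it lay 0.44 above. In both columns first named the targeted gene was below WT, as the labels have it. In *Eomes* KO on day 3 *T* was low as well (4.46 against 334 in WT), as it was in dKO cells (1.93). The levels of *Eomes* and *T* thus do not clearly tell that column from dKO on day 3. What else sets the columns first named apart was not tested. Values corrected for length and GC content are given where they end a call.

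Promoter sequences are shown for genes on which the results turn most. RefSeq promoter windows, from 250 bases before to 50 bases after a transcript start on the GRCm38.p6 build, were found for 59 of the 68 genes (75 windows). Letters of known binding motifs were searched on both strands. GGTGTGA, bound by T-box factors, was in 5.33% of the guidance gene windows and in 3.98% of all 32851 windows. CTTTGAT, bound by Tcf/Lef factors, was in 1.33% and 3.73%, and GGCGCC, the GC-rich Smad motif, in 21.3% and 11.9%. The guidance gene windows were richer in G and C, with a median of 64.3% against 52.7%, and a match is a description of letters, not of a binding site. In the sequences, written 5' to 3' on the strand of the gene, capitals mark those matches. *Epha1* (chr6:42373219-42373518, minus strand) was called lower in 5 of 8 KO comparisons, *Efna3* (chr3:89321719-89322018, minus strand, the downstream of its start sites) in 6, and *Sema3c* (chr5:17574566-17574865, plus strand) was called higher in 3. *Nrp2* (chr1:62703067-62703366, plus strand) was highest in ES cells, and *Epha4* (chr1:77515039-77515338, minus strand), with no match in this window, was called in both directions.
Epha1: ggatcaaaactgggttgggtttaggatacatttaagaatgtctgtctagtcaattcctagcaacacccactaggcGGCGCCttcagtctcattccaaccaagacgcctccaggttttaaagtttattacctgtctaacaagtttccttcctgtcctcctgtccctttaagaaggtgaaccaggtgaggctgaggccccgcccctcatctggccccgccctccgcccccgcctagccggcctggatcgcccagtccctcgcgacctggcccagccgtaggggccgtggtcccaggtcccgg
Efna3, downstream start: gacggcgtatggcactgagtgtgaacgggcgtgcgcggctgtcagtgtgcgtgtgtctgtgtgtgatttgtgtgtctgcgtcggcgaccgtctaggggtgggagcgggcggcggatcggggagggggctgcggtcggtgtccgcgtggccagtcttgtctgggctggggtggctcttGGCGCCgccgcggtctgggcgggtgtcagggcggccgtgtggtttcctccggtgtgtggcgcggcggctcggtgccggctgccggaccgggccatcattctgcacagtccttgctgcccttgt
Sema3c: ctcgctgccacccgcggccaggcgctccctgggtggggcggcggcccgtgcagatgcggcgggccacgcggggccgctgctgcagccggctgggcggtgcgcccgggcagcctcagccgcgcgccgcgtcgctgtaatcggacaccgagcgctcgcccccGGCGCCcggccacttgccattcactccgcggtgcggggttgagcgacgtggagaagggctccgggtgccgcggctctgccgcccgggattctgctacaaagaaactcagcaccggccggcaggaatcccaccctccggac
Nrp2: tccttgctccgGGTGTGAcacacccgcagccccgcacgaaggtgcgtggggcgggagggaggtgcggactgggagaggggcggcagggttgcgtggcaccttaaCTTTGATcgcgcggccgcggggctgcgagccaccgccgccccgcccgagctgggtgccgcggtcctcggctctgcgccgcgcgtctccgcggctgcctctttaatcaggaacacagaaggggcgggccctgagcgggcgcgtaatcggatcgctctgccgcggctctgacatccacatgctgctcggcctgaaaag
Epha4: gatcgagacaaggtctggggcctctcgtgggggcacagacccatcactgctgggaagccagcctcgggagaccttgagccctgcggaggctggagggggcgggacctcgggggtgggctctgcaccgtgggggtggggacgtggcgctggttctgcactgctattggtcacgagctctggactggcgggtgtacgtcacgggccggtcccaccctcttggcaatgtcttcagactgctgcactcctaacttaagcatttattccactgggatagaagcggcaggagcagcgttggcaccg

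In *Epha1* the GGCGCC match began at position -175 from the start, in *Efna3* at -73 and in *Sema3c* at -90, counting its leftmost base. The window of the upstream *Efna3* start (chr3:89322890-89323189), not shown, held no match to any of the motifs. *Nrp2* held GGTGTGA at -239 and CTTTGAT at -146. *Efna1*, *Efna3* and *Efna4* lie side by side on the minus strand of chromosome 3 (89271730 to 89338028), with gaps of 32.9 and 10.5 kb between them.

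Of the 68 genes, 37 stood above FPKM 1 in at least 1 of the 14 columns and 31 in none. The low group held *Ephb1*, 5 of 9 EphA receptors, 10 of 20 semaphorins, 4 of 9 plexins, 3 of 4 Robos, 3 of 4 netrins, 3 of 4 Unc5 receptors, *Slit1* and *Slit2*. Its highest value was 0.979, for *Sema4a*. *Robo4*, known from endothelium, reached 0.587 at most. Above FPKM 10 in some column were 14 genes, and 18 were above 1 at every stage of the F1G4 time course. On this scale, which is per length and so allows genes to be set side by side, the highest means over the time course were those of *Epha2* (20.5), *Unc5b* (17.1), *Epha1* (16.5), *Efnb2* (10.6) and *Plxnb2* (10.1). Among Unc5 receptors *Unc5b*, among neuropilins *Nrp2* (7.19, against 0.172 for *Nrp1*) and among Robos *Robo1* (2.47) had the highest mean, while the plexins *Plxnb2* (10.1) and *Plxna1* (9.05) were close to each other.

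**Figure D1:**
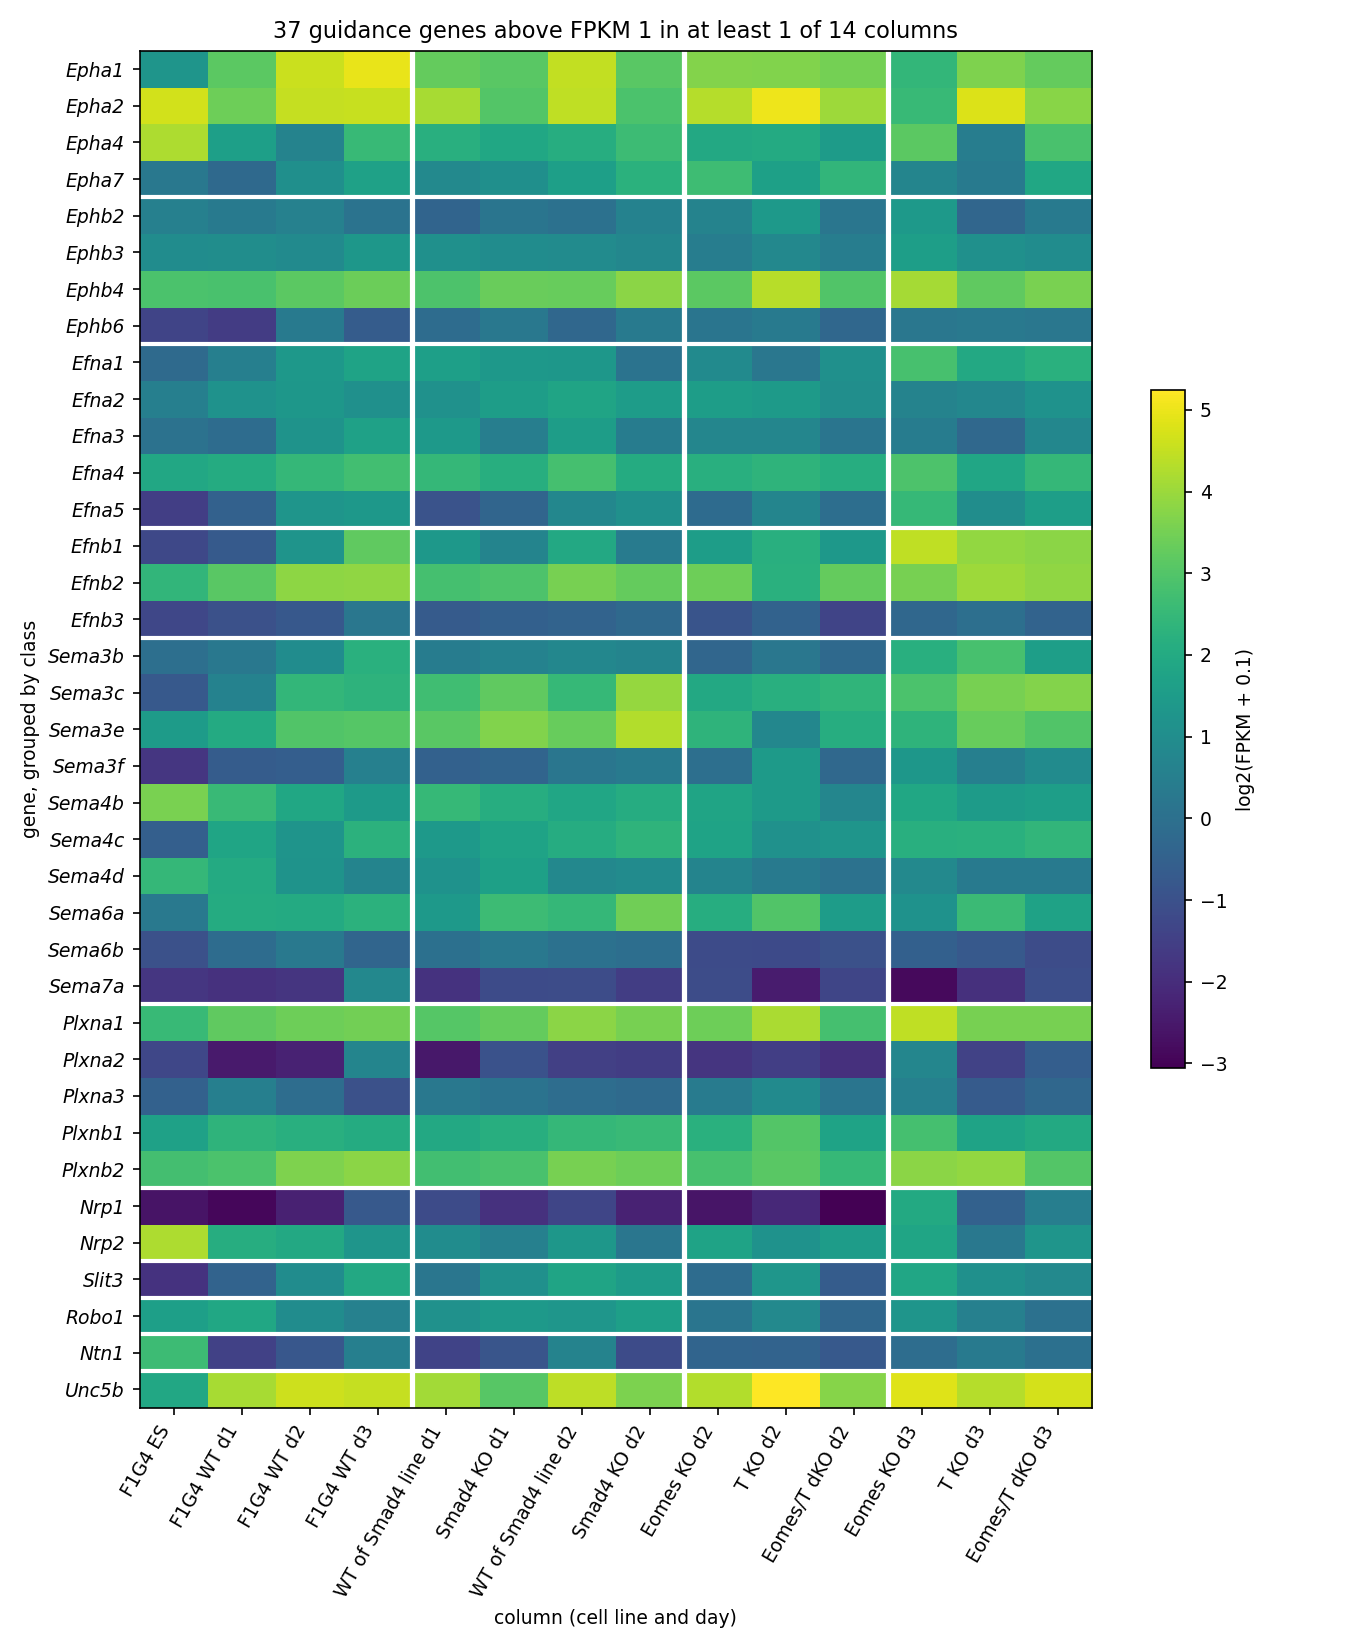
Heat map of log2(FPKM + 0.1) for the 37 guidance genes above FPKM 1 in at least 1 column, with genes in rows by class and the 14 columns of cell lines and days across. *Epha1*, *Epha2* and *Unc5b* are bright in most columns, and *Nrp1* and *Sema7a* are dark in most.

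During the F1G4 time course most expressed guidance genes changed, and more of them went up than down. Compared with ES cells, 11 of 26 examined genes were called on day 1 (5 lower, 6 higher), beside 13.5% of all examined genes (5.84% lower, 7.70% higher). On day 2 it was 20 of 31 (5 lower, 15 higher) beside 23.3% (9.08% and 14.2%), and on day 3 it was 25 of 33 (6 lower, 19 higher) beside 31.1% (12.6% and 18.5%). The median log2 ratio of the guidance genes was 0.30, 0.90 and 1.49 on the 3 days, and that of all examined genes -0.06, -0.04 and -0.02. Examined guidance genes were less abundant than examined genes in general, with median levels in the higher column of FPKM 4.71 and 12.3 on day 3. Among genes with FPKM above 1 to 5 in the higher column, 14 of 18 guidance genes and 48.2% of all genes were called on day 3, and above 5 to 50, 11 of 15 and 26.6%. Of the 36 genes above FPKM 1 at some stage, 21 were highest on day 3, 6 on day 2, 3 on day 1 and 6 in ES cells.

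Among Eph receptors, *Epha1* rose at every step, from FPKM 2.30 in ES cells through 8.77 and 23.7 to 31.3 (log2 ratio 3.77 on day 3). *Epha2*, a receptor known from ES cells and epiblast, went from 25.4 in ES cells to 10.5 on day 1 (called lower, -1.28) and back to 22.8 and 23.4. *Epha4*, a receptor for both ephrin types, was called lower on each day, at 18.4, 2.96, 1.46 and 5.71, with its lowest value on day 2. *Epha4* and *Epha1* thus had opposite orders of ES and day 3 levels. *Epha7* went from 1.11 through 0.763 and 2.01 to 3.12 (called higher on day 3, 1.49). The EphB receptors moved less. *Ephb4*, the receptor of ephrin B2, stood at 7.30, 7.08, 8.81 and 10.4, and *Ephb2* at 1.38, 1.20, 1.39 and 0.983, neither called at any stage. Of the 9 EphA genes 4 were examined on day 3 (1 lower, 2 higher), and of the 5 EphB genes 3 (none called), beside 31.1% of all genes called. One limit applies to *Epha1*, since 236 bases of its exons lie opposite exons of *Zyx*, which encodes zyxin. The libraries kept strand, but whether counting used it is not stated. *Zyx* stood at 0.748, 3.94, 8.10 and 12.7 over the same stages, and its part in the *Epha1* values was not tested.

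All 8 ephrins were examined on day 3, where 6 were called higher and none lower. *Efnb1*, a B-type ligand, showed the widest ratio of all guidance genes on day 3, from 0.315 in ES cells to 0.514, 2.25 and 9.26 (4.88). *Efnb2*, the partner of *Ephb4*, was the most abundant ephrin, at 5.25, 8.53, 14.1 and 14.6 (1.48). The A-type ligands stayed lower. *Efna5* went from 0.249 to 0.613, 2.33 and 2.50 (3.33), *Efna1* from 0.773 to 1.33, 2.47 and 3.26 (2.07), and *Efna3* from 0.957 to 0.821, 2.1999 and 3.16 (1.72). Every one of these 5 ligands was above its ES level on days 2 and 3.

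Of the 20 semaphorins 9 were examined on day 3, with 7 higher and 2 lower. All class 3 genes examined, which are secreted, were among the higher ones. *Sema3c* stood at 0.493, 1.43, 5.30 and 4.82 (3.29) and *Sema3e*, a ligand of plexin D1, at 2.75, 3.90, 7.78 and 8.20 (1.58), while *Sema3f*, a ligand of neuropilin 2, went from 0.201 to 0.542, 0.574 and 1.36 (2.76). The membrane-bound *Sema4b* was called lower on all 3 days, at 11.9, 5.87, 3.57 and 2.64 (-2.17), with day 1 at -1.02 and, corrected for length and GC, at -0.993, and *Sema4d* on days 2 and 3, at 5.49, 3.91, 2.203 and 1.49 (-1.88). *Sema6a*, also membrane-bound and a ligand of class A plexins, was called higher from day 1 on, at 1.14, 3.99, 3.92 and 4.71 (2.05). Class 4 went both ways, since *Sema4c*, chosen after its values were seen, was called higher on all 3 days, at 0.582, 3.40, 2.27 and 4.70 (3.01). The plexin D1 gene stayed below FPKM 1 in all columns.

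Among their receptors, the plexins *Plxna1* and *Plxnb2* were expressed throughout, *Plxna1* at 5.71, 9.14, 10.5 and 10.9 and *Plxnb2* at 6.69, 7.36, 12.5 and 13.8 (called higher on day 3, 1.04, and 0.85 after the length and GC correction). The neuropilins differed from each other. *Nrp2* was at 18.5 in ES cells and at 4.21, 3.72 and 2.30 after Bmp4 (-3.01 on day 3), while *Nrp1* did not pass FPKM 1, at 0.0620, 0.0319, 0.102 and 0.492. Levels of *Nrp2* and of its ligand *Sema3f* thus ran in opposite directions over the time course.

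Slit and netrin genes each had 1 expressed member. *Slit3* went from 0.175 in ES cells to 0.650, 1.88 and 3.74 (4.41), and the receptor *Robo1* from 2.96 through 3.63 and 1.87 to 1.41 (called lower on day 3, -1.07). *Ntn1* dropped from 6.11 to 0.261 on day 1 (-4.55) and was at 0.473 and 1.35 later. *Unc5b*, a receptor of netrin 1 and of Flrt proteins, moved the other way, from 3.64 to 17.9, 24.2 and 22.7 (2.29 already on day 1). The ligand of each pair was thus called in the opposite direction to its receptor. *Dcc*, another netrin receptor, was at 0.00518 in ES cells and listed at 0 on days 1, 2 and 3. *Neo1*, which encodes the netrin receptor neogenin, was at 5.35, 6.85, 8.55 and 6.04 over the 4 stages.

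**Figure D2:**
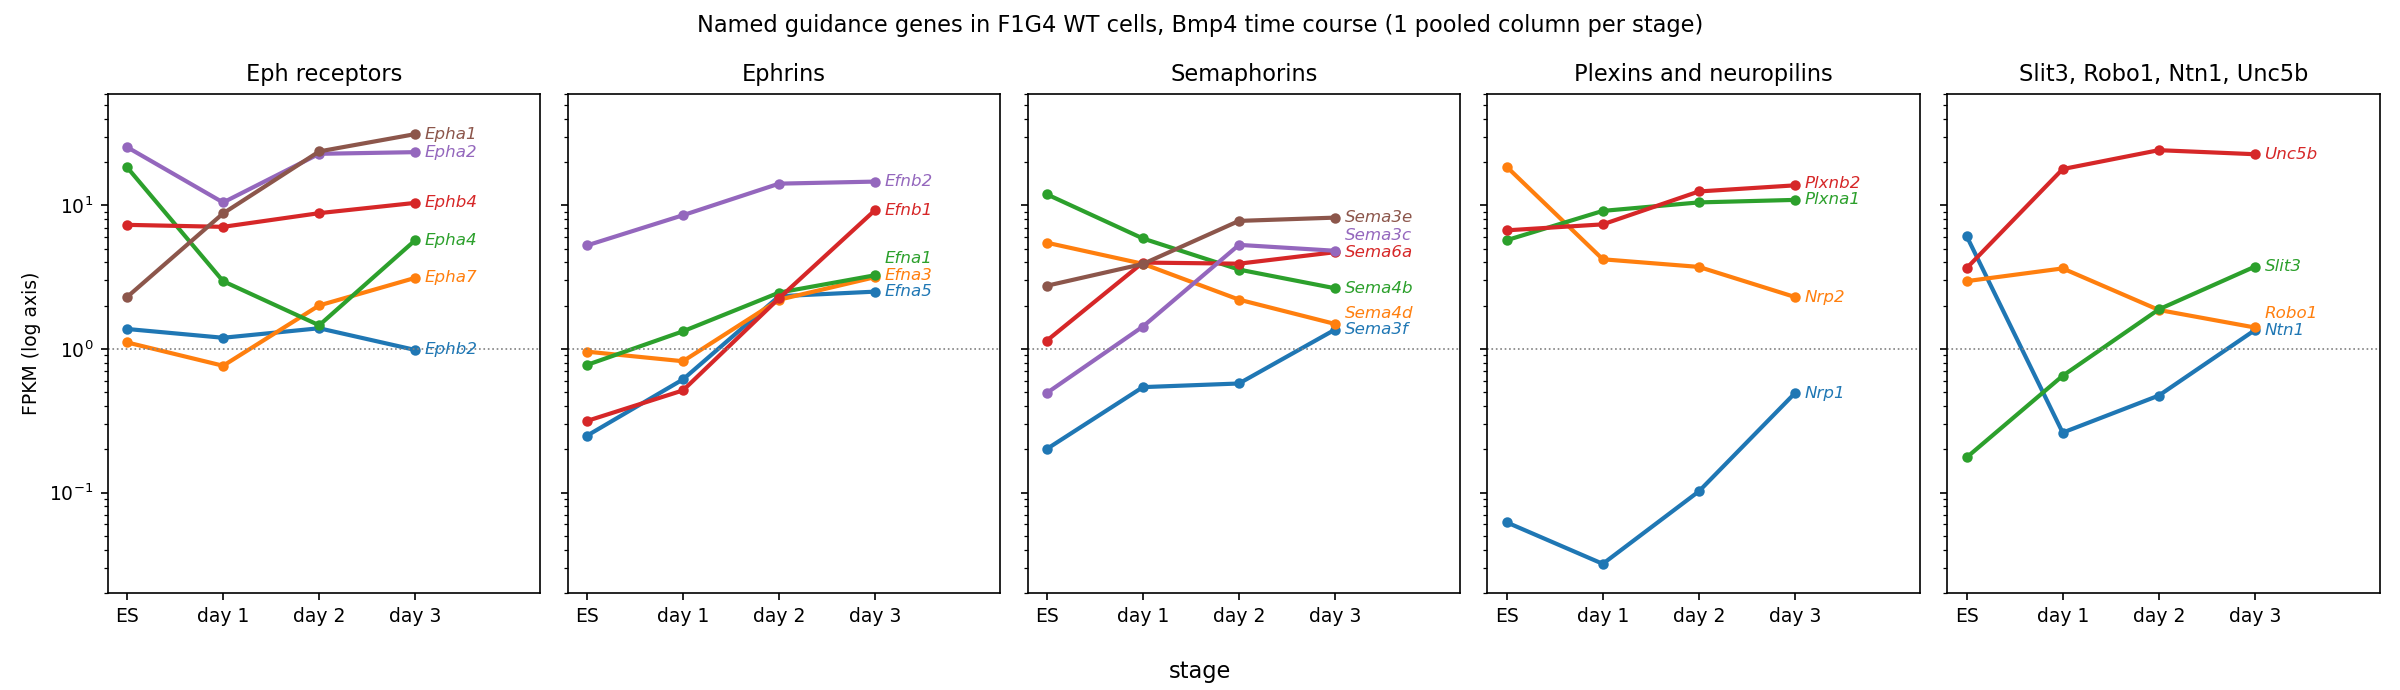
FPKM on a log axis at the 4 stages of the F1G4 time course (ES to day 3), for 25 guidance genes in 5 panels by role. Each point is a single pooled value, and the dotted line marks FPKM 1. All 5 ephrins shown end above their ES level, *Epha4*, *Nrp2* and *Ntn1* drop from ES cells to day 1, and *Unc5b* climbs from 3.64 to 17.9 in the same step.

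The KO comparisons set Bmp4-treated cells without Smad4, *Eomes* or *T* beside WT cells. In the *Smad4* line, 4 of 30 examined guidance genes were called on day 1 (3 lower, 1 higher) beside 4.77% of all genes (2.41% lower, 2.36% higher). On day 2 of that line it was 8 of 31 (7 lower, 1 higher) beside 5.77% (3.21% and 2.56%). In *Eomes* KO cells 6 of 31 were called on day 2 (4 lower, 2 higher) beside 7.52% (4.17% and 3.35%), and 12 of 36 on day 3 (6 lower, 6 higher) beside 16.4% (9.01% and 7.39%). Among *T* KO cells it was 8 of 32 on day 2 (4 lower, 4 higher) beside 15.6% (9.93% and 5.70%), and 9 of 33 on day 3 (7 lower, 2 higher) beside 6.04% (3.92% and 2.12%). With both genes lost, 11 of 31 were called on day 2 (10 lower, 1 higher) beside 7.99% (4.50% and 3.48%), and 7 of 35 on day 3 (5 lower, 2 higher) beside 11.0% (5.53% and 5.51%). The 3 lines made in F1G4 cells share the same WT libraries on a given day. In every KO comparison the share of guidance genes called was thus above that of all genes.

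The guidance genes also differed from all genes in level. Examined guidance genes had medians of FPKM 2.71 to 4.29 in the higher column of the KO comparisons, and all examined genes 10.1 to 11.8. Among genes with FPKM above 1 to 5 there, 1 of 18 guidance genes was called in *Smad4* KO cells on day 1 beside 11.5% of all genes, and 5 of 18 on day 2 beside 11.6%. At those levels 5 of 20 were called in *Eomes* KO cells on day 2 beside 15.0% and 7 of 21 on day 3 beside 27.1%. For *T* KO cells the counts were 5 of 20 on day 2 beside 21.4% and 6 of 19 on day 3 beside 12.7%, and for dKO cells 8 of 20 beside 15.0% and 5 of 22 beside 21.3%. At low levels, the guidance genes were called at close to the share of all genes in *Eomes* KO on day 3, *T* KO on day 2 and dKO on day 3, and below it in *Smad4* KO on day 1. Above FPKM 5 to 50 the counts in *Smad4* KO were 3 of 12 beside 1.85% on day 1 and 3 of 13 beside 3.78% on day 2, and in *Eomes* KO 1 of 11 beside 4.37% and 5 of 15 beside 11.9% on days 2 and 3. For *T* KO they were 3 of 12 beside 12.9% and 3 of 14 beside 3.44%, and for the dKO 3 of 11 beside 4.92% and 2 of 13 beside 7.04%. At these levels the share of guidance genes called was above that of all genes in each KO comparison.

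As a measure of how far columns of unmodified cells differ, WT cells of the *Smad4* line were compared with F1G4 WT cells after scaling to a median ratio of 1. There 7 of 28 guidance genes were called on day 1 (1 lower, 6 higher) beside 11.2% of all genes (3.83% lower, 7.36% higher), and 2 of 32 on day 2 (both higher) beside 5.09% (3.51% and 1.58%). On day 1 these were *Efna1* (1.22, and 0.90 corrected for length and GC), *Efna3* (1.73), *Efnb1* (2.32), *Epha7* (1.20), *Nrp2* (-1.13, and -0.89 corrected), *Sema3c* (2.22) and *Sema3e* (1.18), and on day 2 *Epha4* (1.56) and *Ntn1* (1.64). Several genes named below thus also differed by more than 2-fold between cells in which no gene was deleted.

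**Figure D3:**
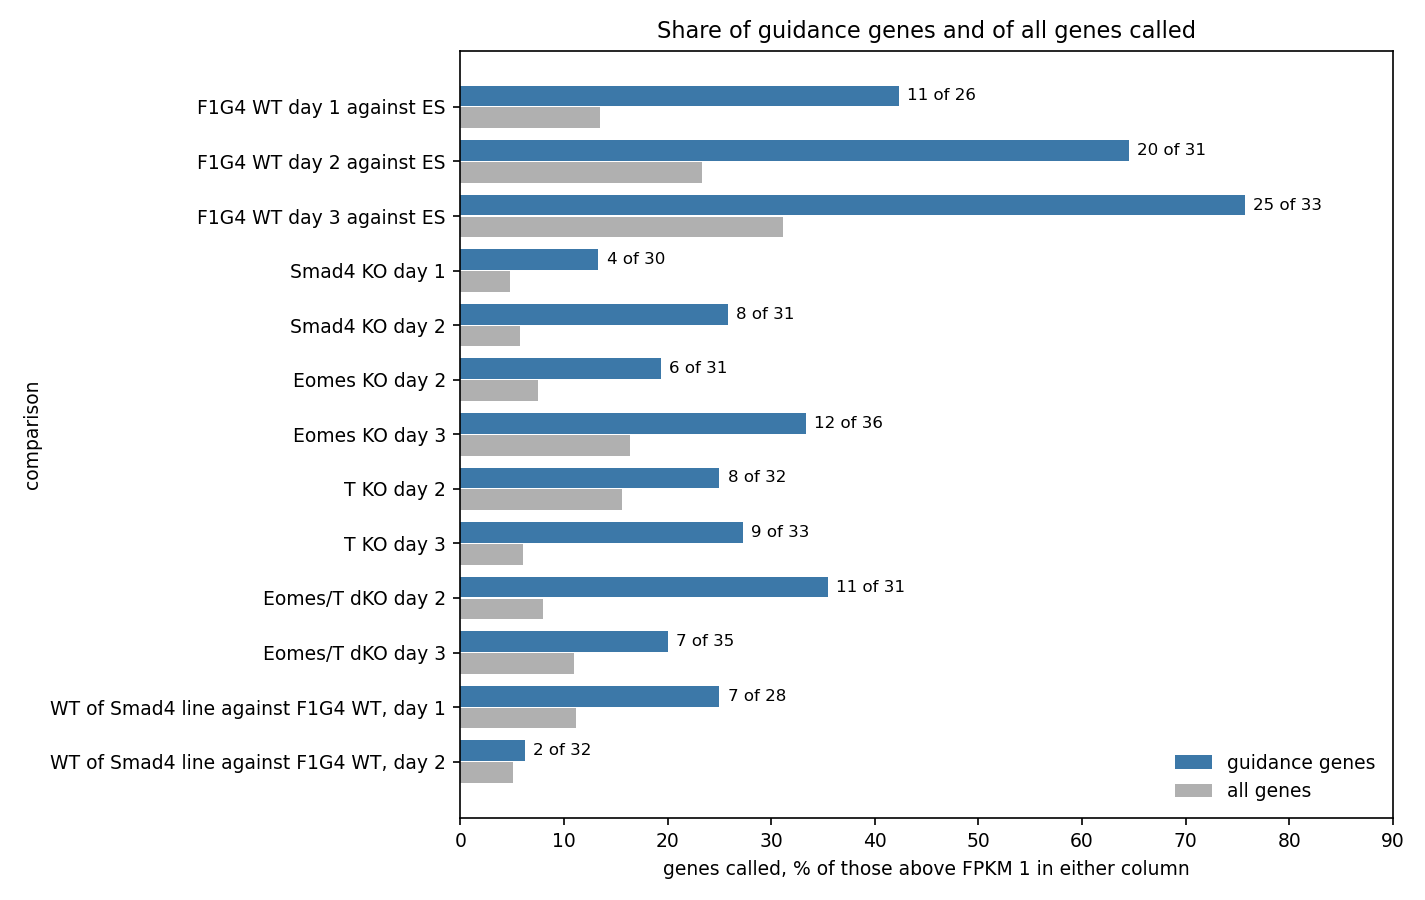
Percent of examined genes called in each of 13 comparisons, for guidance genes (blue, with counts) and for all genes (grey). The blue bar is the longer in each, by the least for the WT lines on day 2 (2 of 32 beside 5.09%).

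Over all 8 KO comparisons, 30 of the 37 expressed guidance genes were called at least once (23 lower, 13 higher, 6 of them in both directions), beside 35.2% of all genes examined in at least 1 (20.7% lower, 17.8% higher). Without the day 3 column of *Eomes* KO and the day 2 column of *T* KO it was 24 of 37 (20 lower, 6 higher) beside 22.0% (12.5% and 11.4%). Without the day 2 column of the dKO as well it was 20 of 37 (16 lower, 6 higher) beside 20.3% (11.4% and 10.5%). Calls in the lower direction exceeded those in the higher direction in each of these counts.

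In *Smad4* KO cells several Eph receptors and ephrins were lower than in WT and a class 3 semaphorin was higher. On day 2, *Epha1*, *Epha2*, *Efna1*, *Efna3*, *Efnb1*, *Nrp2* and *Ntn1* were called lower and *Sema3c* higher. On day 1, *Epha2*, *Efna3* and *Unc5b* were called lower and *Sema6a* higher. With values as TPM the count on day 1 was 1 lower and 3 higher, of 36 examined rather than 30. None of the 4 EphB receptors or 4 plexins examined on day 1 was called, and none of 4 and 3 on day 2. With 4.77% and 5.77% of all genes called on these days, the lack of a call among so few genes does not set these classes apart. The median log2 ratio was 0.21 on day 1 and -0.09 on day 2 for guidance genes, and -0.0046 and -0.0096 for all genes.

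Without *Eomes*, more guidance genes were called on day 3 than on day 2, as were more of all genes (16.4% against 7.52%). On day 2, *Efna5* and *Slit3* were called lower and *Epha4* and *Epha7* higher. On day 3, *Epha1*, *Epha2*, *Epha7*, *Efna3* and *Sema6a* were called lower, and *Efna1*, *Efna5*, *Efnb1*, *Ephb2* and *Nrp1* higher, with a median log2 ratio of 0.17 over guidance genes and -0.04 over all genes. After correction for length and GC content, *Efnb1* (0.99) and *Ephb2* (0.88) were no longer past the threshold, and 7 guidance genes were called lower and 4 higher. In this column the 6 fibroblast markers summed to FPKM 4.31 against 2.00 in WT, with *Postn* at 1.46 against 0.478, and their part in the higher values was not tested.

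Without *T*, *Efnb2*, *Efna1* and *Sema3e* were called lower on day 2 and *Epha4*, *Ephb4* and *Sema3f* higher, of which *Ephb4* fell short after the correction (0.87), with 6 guidance genes then lower and 2 higher. On day 3, *Epha1*, *Epha4*, *Epha7*, *Efna3* and *Nrp2* were called lower and *Sema3c* higher. The medians were -0.16 and -0.20 on days 2 and 3 for guidance genes and -0.01 on both days for all genes. None of the genes called lower on day 2 was called lower on day 3.

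In dKO cells the lower calls on day 2 ran through most classes, with *Epha1*, *Efna3*, *Efna5*, *Sema4b*, *Sema4d*, *Plxnb2*, *Slit3* and *Robo1*, while *Epha7* was called higher. The length trend of this column moves with these calls. After correction 4 guidance genes were called lower and 2 higher, and *Epha1* (-0.97), *Efna3* (-0.98), *Plxnb2* (-0.72), *Robo1* (-0.996), *Sema4b* (-0.89) and *Sema4d* (-0.94) were no longer past the threshold. The median log2 ratio was -0.49 for guidance genes as deposited and -0.33 after correction, and -0.0082 for all genes as deposited. On day 3, *Epha1*, *Efna3* and *Slit3* were called lower and *Nrp1* and *Sema3c* higher, of which *Efna3* (-0.99) and *Slit3* (-0.97) fell short after correction, with 3 guidance genes then lower and 2 higher.

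The remaining calls were of genes outside the naming rule, given here after their values were seen. *Sema3b* and *Sema6b* were called lower in *Eomes* KO and dKO cells on day 2, and *Sema6b* also in *T* KO cells on day 2. *Plxna3* was called higher in *T* KO cells on day 2 (1.02, and 0.84 corrected) and in *Eomes* KO cells on day 3, and *Ephb6* in *T* KO cells on day 3. *Sema7a* was called lower in all 3 lines on day 3, and *Plxna2* in *T* KO and dKO cells. In these comparisons both passed the FPKM minimum only through the WT value of that day. All were below FPKM 2 in both columns of these comparisons.

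**Figure D4:**
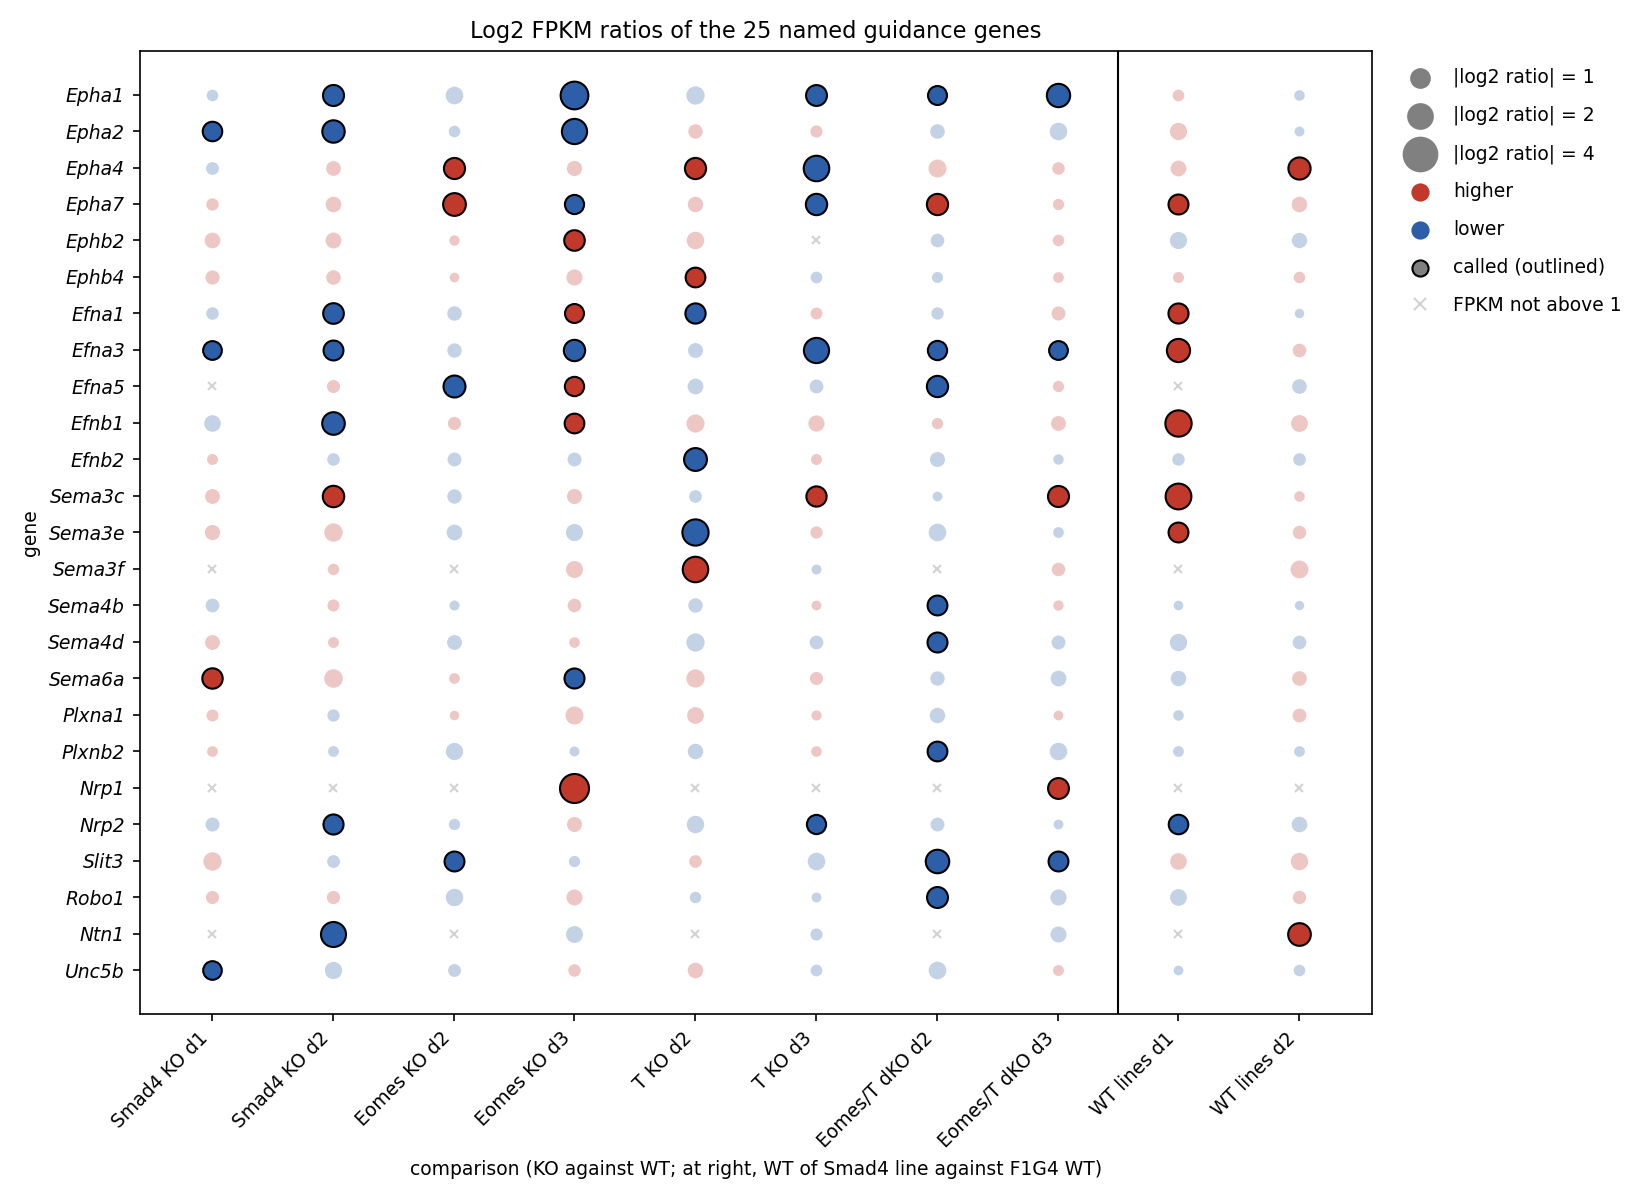
Log2 FPKM ratios of the 25 named guidance genes in the 8 KO comparisons and, right of the line, between the WT lines. Area grows with the size of the ratio, red is higher and blue lower, outlined circles are called and crosses mark genes not above FPKM 1 in either column. *Epha1* and *Efna3* are blue in every KO comparison, and the other genes vary in sign or size.

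*Epha1* was lower than WT in all 8 KO comparisons and called lower in 5. In the *Smad4* line, WT cells had FPKM 9.69 on day 1 and 22.1 on day 2, and KO cells 8.54 and 8.56 (-1.37 on day 2). Both WT lines thus had more than 2-fold as much on day 2 as on day 1, while the KO cells had nearly the same on both days. On day 2 it was at 12.9 in *Eomes* KO, 12.6 in *T* KO and 11.3 in dKO cells against 23.7 in WT, with log2 ratios of -0.86, -0.96 and -1.05. On day 3 it was at 5.33, 12.5 and 9.65 against 31.3, with log2 ratios of -2.62, -1.34 and -1.75. The 2 WT lines differed by 0.20 on day 1 and -0.09 on day 2, less than any of the called KO ratios. *Zyx*, which overlaps *Epha1*, was at 11.0, 10.8 and 9.01 in the KO columns of day 3 against 12.7 in WT. On day 2 it was at 8.47 in *Eomes* KO, 18.3 in *T* KO and 5.96 in dKO cells against 8.10. In the *Smad4* line *Zyx* was at 3.46 and 7.46 in WT cells on days 1 and 2, and at 4.95 and 4.85 in KO cells. There *Zyx* thus rose in WT cells and stayed nearly level in KO cells, as *Epha1* did, and its part was not tested. The calls of *Epha1* on day 3, and in *Smad4* KO cells on day 2, held under every processing alternative.

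*Epha2* was called lower in *Smad4* KO cells on both days and in *Eomes* KO cells on day 3. In *Smad4* KO cells it was at 8.09 against 17.7 on day 1 (-1.13) and at 7.24 against 21.9 on day 2 (-1.60). In *Eomes* KO cells it was at 19.9 on day 2 and at 5.69 on day 3 (-2.10), and in *T* KO cells at 32.5 and 27.8, the highest 2 values of all columns. With *Eomes* and *T* both lost, it stood at 16.1 and 13.4, not called on either day (-0.49 and -0.86). The calls in *Smad4* KO and *Eomes* KO cells held under every processing alternative, and the WT lines differed by 0.81 on day 1 and -0.05 on day 2.

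*Epha4* in *T* KO cells and *Epha7* in *Eomes* KO cells were called in opposite directions on days 2 and 3. *Epha4*, at 1.46 in F1G4 WT cells on day 2, was at 3.75 in *Eomes* KO (1.38), 3.93 in *T* KO (1.39) and 2.71 in dKO cells (0.91). On day 3, with WT at 5.71, it was at 8.78 in *Eomes* KO, 1.28 in *T* KO (-2.17) and 7.15 in dKO cells. The loss seen in *T* KO cells on day 3 was not seen in dKO cells, which lack *T* as well. WT cells of the *Smad4* line had 4.40 and 4.26 on days 1 and 2, and their KO cells 3.58 and 6.04, so that the ratio between the WT lines on day 2 (1.56) was above those of the *Eomes* KO and *T* KO cells. *Epha7*, at 2.01 in F1G4 WT cells on day 2, was at 6.26 in *Eomes* KO (1.65), 3.09 in *T* KO and 5.23 in dKO cells (1.40). On day 3, with WT at 3.12, it was at 1.55 (-1.08), 1.18 (-1.41) and 3.61. *Sox1* and *Pax6*, neural markers, were at 7.17 and 4.54 in *Eomes* KO and 5.17 and 4.23 in dKO cells on day 2, against 0.202 and 0.101 in WT. *Otx2* (17.6 and 14.6 against 19.3) and *Tubb3* (5.29 and 5.96 against 8.35), of the same list, were lower there, and the sum of the 5 was 34.6 and 29.9 against 27.96. The part of neural markers in the higher *Epha4* and *Epha7* values of day 2 was not tested.

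Of the EphB receptors, *Ephb4* reached 20.3 in *T* KO cells on day 2 (1.16) and 17.2 in *Eomes* KO cells on day 3 (0.66), and was between 7.08 and 13.8 in the other 12 columns. Its ligand *Efnb2* was at 4.57 in *T* KO cells on day 2 (-1.67), below all other day 2 and day 3 columns, which ran from 9.58 to 16.2. In *T* KO cells on day 2 receptor and ligand thus moved in opposite directions, and on day 3 neither was called. *Ephb2* stood at 2.59 in *T* KO cells on day 2, which was not called (0.85), and at 2.52 in *Eomes* KO cells on day 3 (1.29).

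Among A-type ephrins, *Efna3* was lower than WT in all 8 KO comparisons and called in 6, at low levels. It stood at 1.30 against 2.63 and at 1.25 against 2.85 in the *Smad4* line on days 1 and 2 (-1.02 and -1.19). Among day 2 columns it was at 1.59 in *Eomes* KO and 1.58 in *T* KO cells, not called, and at 1.02 in dKO cells (-1.09) against 2.1999 in WT. On day 3 it was at 1.24, 0.742 and 1.61 against 3.16 (-1.41, -2.10 and -1.02). Of these 6 ratios 4 lie between -1.19 and -1.02, and none of the calls held under every alternative. No value reached FPKM 5, so none could hold at that minimum. Some ratios also fell short in other ways. These were *Smad4* KO on day 1 as TPM (-0.95), dKO on day 2 after length and GC correction (-0.98), and dKO on day 3 with the median ratio scaled to 1 (-0.99). On day 1 *Efna3* differed between the WT lines (0.821 in F1G4 cells and 2.63 in the *Smad4* line) by more than in its calls, except in *T* KO on day 3. On day 2 it was not called between them. Its neighbour *Efna1* did not share the pattern of lower KO values. It was called lower in *Smad4* KO cells on day 2 (0.984 against 2.43) and in *T* KO cells on day 2 (1.08 against 2.55), and higher in *Eomes* KO cells on day 3 (7.04 against 3.41). *Efna5* was at 0.805 in *Eomes* KO and 0.869 in dKO cells on day 2 against 2.30 in WT, and at 5.61 in *Eomes* KO cells on day 3 against 2.62.

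*Efnb1* was called lower without Smad4, and in the lines without T-box genes it was not. WT cells of the *Smad4* line had 2.48 on day 1 and 3.79 on day 2, and their KO counterparts 1.50 and 1.22 (-1.63 on day 2). With WT at 2.25 on day 2, the *Eomes* KO had 2.82, the *T* KO 4.41 and the dKO 2.49, none called. On day 3 it was at 21.5 in *Eomes* KO (1.16), 14.9 in *T* KO and 13.7 in dKO cells against 9.26. All 3 KO lines thus stood above WT on day 3, and 1 of them was called. On day 1 *Efnb1* differed between the WT lines (0.514 in F1G4 cells and 2.48 in the *Smad4* line) by more than in either KO call. On day 2 it was not called between them.

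*Sema3c* was the guidance gene called higher in the most KO comparisons. On day 1 the WT lines (1.43 in F1G4 cells and 6.43 in the *Smad4* line) differed by more than any of these called ratios. On day 2 it was not called between them. In *Smad4* KO cells it was at 9.18 against 6.43 on day 1 and at 15.2 against 5.62 on day 2 (1.43). With WT at 5.30 on day 2, the *Eomes* KO had 3.80, the *T* KO 4.46 and the dKO 5.13. On day 3 it was at 7.29, 11.5 (1.24) and 12.9 (1.37) against 4.82. The 3 calls held under every processing alternative. *Sema3e* had its highest value in the same column, 19.4 in *Smad4* KO cells on day 2 against 9.94 in WT (0.96, not called), and its lowest day 2 value in *T* KO cells, 1.62 against 8.01 (-2.31). The neural markers *Sox1* and *Pax6* were at 3.58 and 10.4 in *Smad4* KO cells on day 2 against 0.302 and 0.378, and their part was not tested. In the same column the 6 fibroblast markers summed to FPKM 5.35 against 2.17 in WT cells of that line. Among them *Dcn* was at 2.02 against 0 and *Thy1* at 2.04 against 1.26. The part of fibroblast markers in the higher *Sema3c* and *Sema3e* values was not tested either. *Sema6a* was at 6.15 against 2.56 and at 10.8 against 5.47 in *Smad4* KO cells on days 1 (1.26) and 2 (0.99), and at 2.13 against 4.91 in *Eomes* KO cells on day 3 (-1.20). *Sema3f* stood at 2.66 in *T* KO cells on day 2 against 0.594 (2.16).

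**Figure D5:**
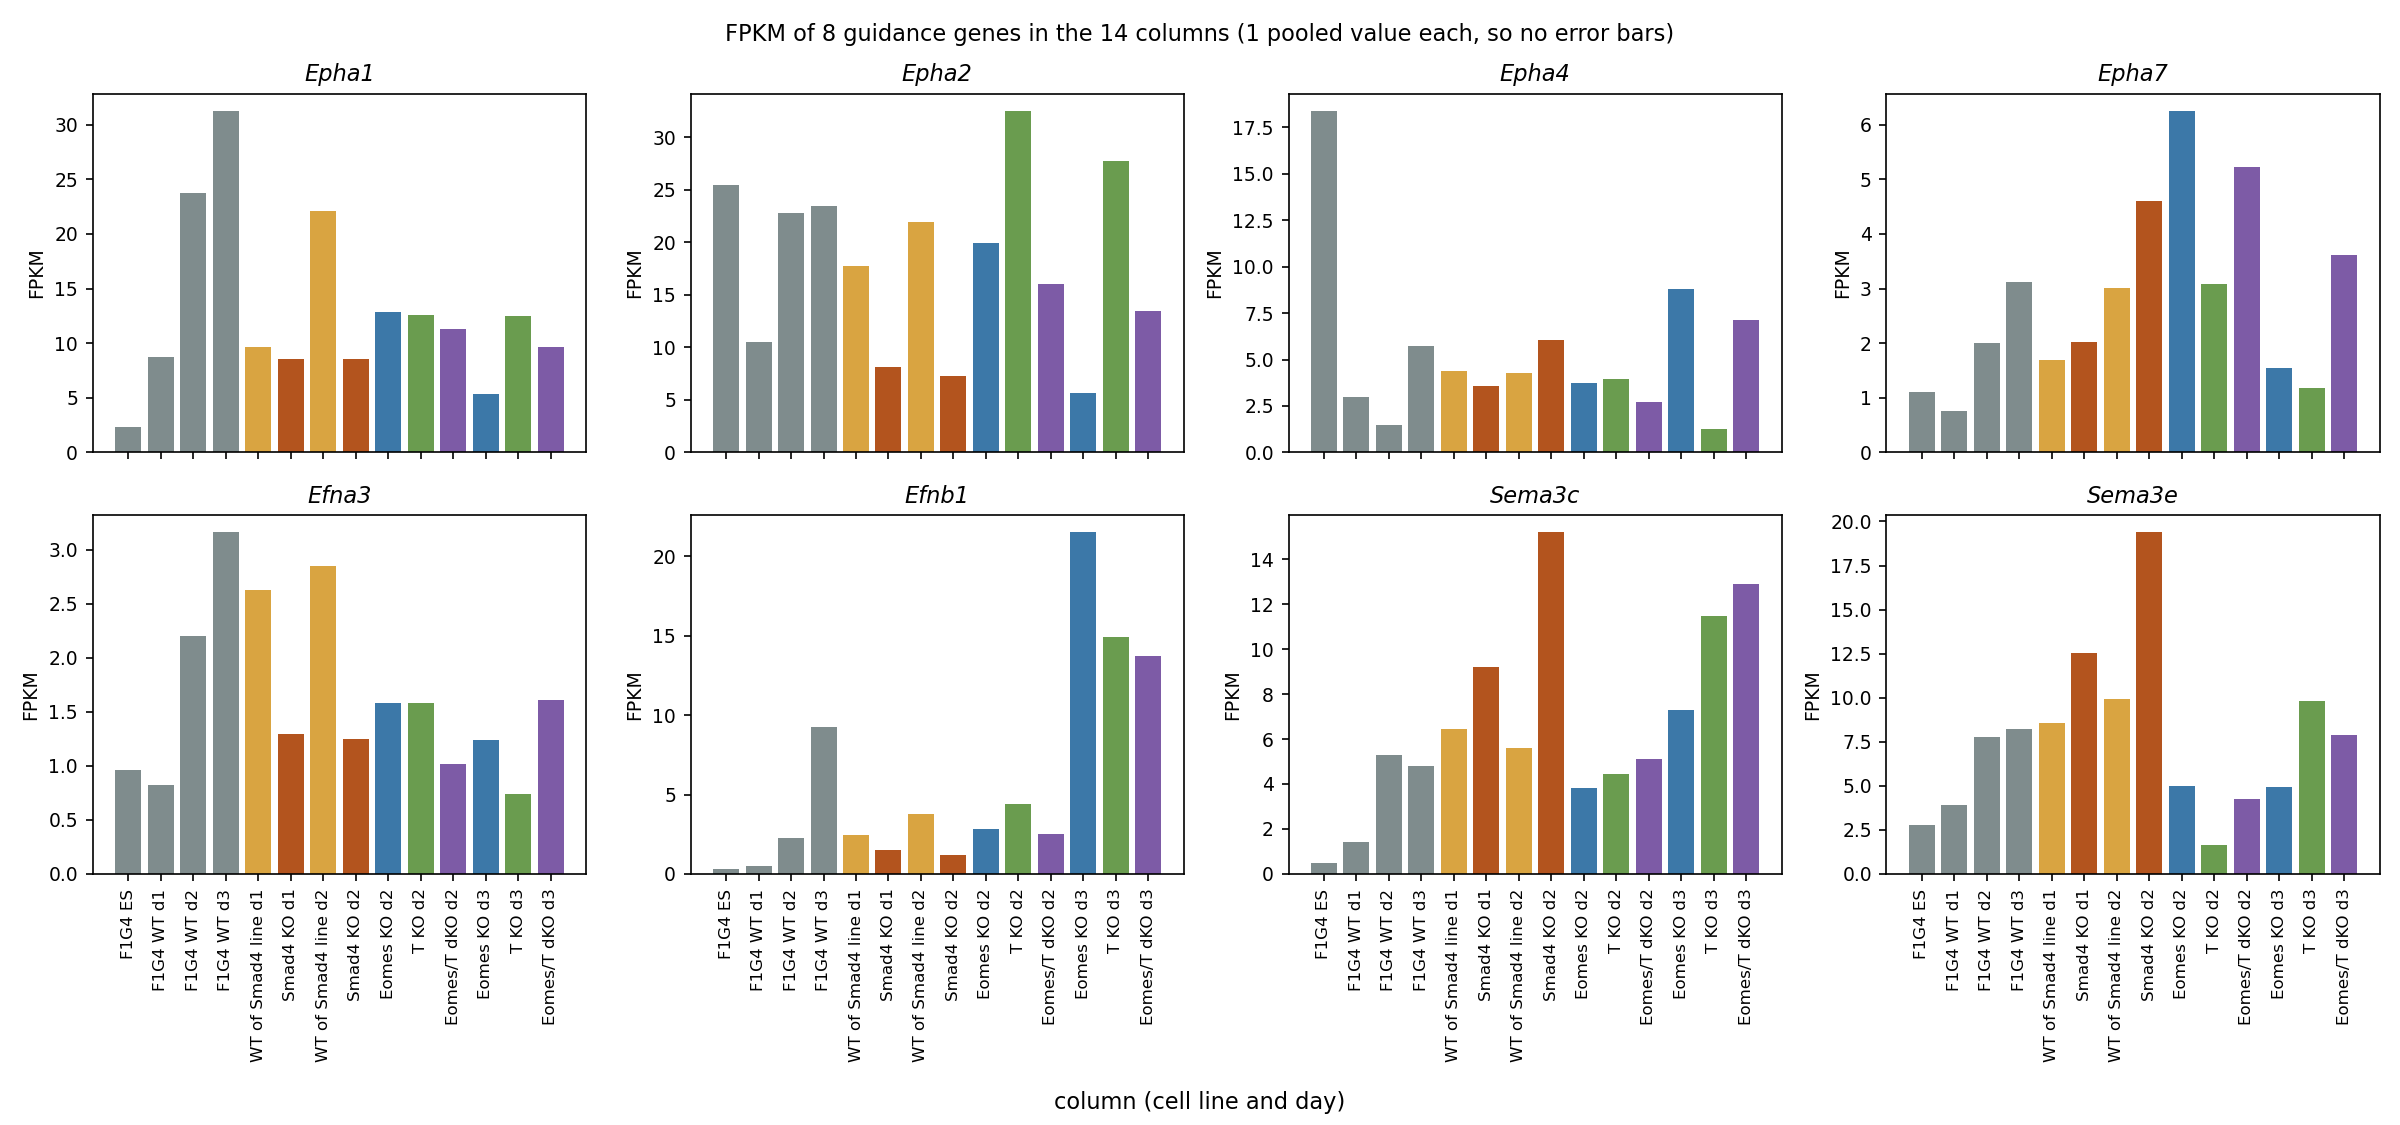
FPKM of *Epha1*, *Epha2*, *Epha4*, *Epha7*, *Efna3*, *Efnb1*, *Sema3c* and *Sema3e* in the 14 columns, as bars from 0 and without error bars because each column is 1 pooled value. Grey is F1G4 WT, yellow and brown are WT and KO cells of the *Smad4* line, blue *Eomes* KO, green *T* KO and purple dKO. *Epha1* is highest in F1G4 WT cells on day 3 (31.3) and *Sema3c* in *Smad4* KO cells on day 2 (15.2).

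*Sema7a*, which encodes a semaphorin with a lipid anchor, lies outside the naming rule and was chosen after its values were seen. It was at 0.201, 0.170, 0.192 and 1.66 in the F1G4 time course, and on day 3 at 0.0375 in *Eomes* KO, 0.163 in *T* KO and 0.377 in dKO cells. All 3 KO columns of day 3 were below the WT value of that day, and each ratio was called. *Sema7a* passed the FPKM minimum only through that WT value, which the 3 ratios share. The 3 calls thus rest on a single column and are not separate results. *Plxna2*, a class A plexin also chosen after its values were seen, was at 1.54 in WT cells on day 3 and at 1.57, 0.271 and 0.564 in the same KO lines. It was called lower in *T* KO (-2.52) and dKO cells (-1.50), where it too passed the minimum only through the WT value. Both genes stayed below FPKM 2 in every column, where ratios are least certain.

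*Nrp1* was highest in *Eomes* KO cells on day 3, at 3.86 against 0.516 in WT (2.904). It was at 1.29 in dKO cells (1.34) and 0.618 in *T* KO cells on that day, and below 0.5 in the other 11 columns. *Nrp2* was called lower in *Smad4* KO cells on day 2 (1.05 against 2.44) and in *T* KO cells on day 3 (1.09 against 2.32). Plexins gave few calls. *Plxnb2* was at 5.51 in dKO cells on day 2 against 12.3, lost after the length correction, and *Plxna1*, between 5.71 and 21.6 over all columns, was not called in any KO comparison.

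*Slit3* was called lower in *Eomes* KO cells on day 2 (0.820 against 1.87) and in dKO cells on day 2 (0.539 against 1.86) and day 3 (1.71 against 3.89). In *Eomes* KO cells on day 3 it was at 3.51 and in *T* KO cells at 2.37 on day 2 and 2.08 on day 3, not called. *Robo1* was at 0.722 in dKO cells on day 2 against 1.84. *Ntn1* was called lower in *Smad4* KO cells on day 2, at 0.348 against 1.46 (-2.07), while F1G4 WT cells had 0.473 on that day. *Unc5b* was called lower in *Smad4* KO cells on day 1, at 8.40 against 16.8 (-1.003), and was at 12.01 against 21.1 on day 2 (-0.81). It had its highest value in *T* KO cells on day 2, 37.8 against 24.2 in the time course (0.60).

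Partners and effectors of these pathways, chosen as a list of 48 genes of which 47 were found, are given for comparison. On day 3 of the time course 33 were examined, of which 5 were called lower and 10 higher, beside 12.6% and 18.5% of all genes. The 3 with the highest ratios were *Farp1*, an effector of class A plexins, at 6.22 against 0.473 (3.72), *Rgma*, a ligand of neogenin, at 1.08 against 0.0867 (3.64), and *Rras*, a small GTPase on which plexins act, at 17.9 against 2.91 (2.62). Among those called lower were *Enah*, an actin regulator, at 13.1 against 62.5 (-2.26) and *Crmp1*, a mediator of semaphorin signals, at 5.01 against 15.6 (-1.64). Their median log2 ratio was 0.48, beside 1.49 for the guidance genes and -0.02 for all genes.

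In the KO comparisons 1 to 7 of 32 to 34 examined partner genes were called, beside 4.77% to 16.4% of all genes. The highest counts were 7 of 34 in *Eomes* KO on day 3, beside 16.4%, and 4 of 33 in *T* KO on day 2, beside 15.6%. For *Smad4* KO it was 1 of 34 on each day, beside 4.77% and 5.77%. All of these counts were close to the share of all genes or below it. *Eomes* KO cells on day 3 had 2 lower and 5 higher, among them *Lrig3* at 1.25 against 5.29 (-2.08), *Nck1*, an adaptor of Eph and Robo signals, at 10.5 against 24.6 (-1.23) and *Plxdc2* at 14.0 against 4.05 (1.79). *T* KO cells on day 2 had 3 lower and 1 higher, with *Lrig3* (-1.89), *Adam10*, a protease that cleaves ephrins (-1.66), *Nck1* (-1.61) and *Rgma* (2.06). *Lrig3* and *Nck1* were thus called lower, and *Rgma* higher (1.38 in *Eomes* KO), in both of these columns. They are also the columns with the highest shares of all genes called, and what they share was not tested. *Adam10* was also called lower in *T* KO cells on day 3, at 3.72 against 7.90 (-1.09). In *Eomes* KO and dKO cells on day 2, *Fes*, a kinase acting after plexins, and *Tiam1*, an exchange factor for Rac, were called lower. *Lrig3* in *Smad4* KO cells on day 2 (1.13) and *Dpysl5* on day 1 (1.00) were the single calls of that line.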

How the data were processed

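RNA-seq of 18 samples was used. After read checks (FastQC) and trimming (cutadapt 2.9), the authors mapped reads to mm10 by HISAT2 2.1.0, handled alignments in SAMtools 1.9 and obtained FPKM of refSeq genes from Cuffdiff 2.2.1, correcting for sequence bias and multiply mapped reads but not for effective length. Libraries were strand-specific. The deposited files are 9 tables of FPKM, the F1G4 time course and 8 KO comparisons, with 1 pooled column per condition, so that depth per sample, replicate spread and counting precision are unknown and no test was run. F1G4 WT columns of the KO tables equal the time course times a factor between 0.989 and 1.04. Ratios use the WT column of their own table, and F1G4 WT levels printed in the text are from that column or from the time course.

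Ratios were taken within a table, without a pseudocount, for all genes with FPKM above 1 in either column, and called beyond a log2 ratio of 1. WT lines were compared across tables after scaling to a median ratio of 1. The 4 rows with duplicate gene names were left out. The tables used held no comparison columns of the authors. Members are named where called in a KO comparison with a higher value of FPKM 2 or more, at 10 or more in the F1G4 time course, called between ES cells and day 3 with at least 5, or highest on average in their class, and partner genes where among the 3 largest changes in each direction. Members and lists were chosen with earlier results of these data known. Alternatives were pseudocounts of 0.1 and 1, no FPKM minimum or one of 5, TPM, scaling to the median ratio, the time-course WT column, and subtraction of medians over 20 groups of genes by length and then by GC content. The calling step was tested on simulated data. Positions, promoters and exon overlaps came from RefSeq on GRCm38.p6, which has the coordinates of mm10. Software was Python 3.11.15 with numpy 2.4.6, pandas 2.3.3 and, for plots, matplotlib 3.10.9. The values of 1 partner gene are not reported here.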

Additional observations from a re-analysis of the deposited data

Results flagged for a closer look

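In 3 genes the same KO line gave calls in opposite directions on days 2 and 3, and the difference between days was not tested, as each value compares 2 columns. *Efna5* had a log2 ratio of -1.51 in *Eomes* KO cells on day 2 and of 1.10 on day 3. *Epha7* had 1.65 in the same cells on day 2 and -1.08 on day 3. *Epha4* had 1.39 in *T* KO cells on day 2 and -2.17 on day 3. Day 3 of *Eomes* KO and day 2 of *T* KO are also the columns with the highest shares of all genes called (16.4% and 15.6%), and their part in these reversals was not tested.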

How the results depend on the processing

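The single pooled column per condition is the main limit. No paired analysis was possible because the columns carry no replicates, and for the same reason no replicate could be left out. No call of a named guidance gene reversed under an alternative, and calls of the others were not followed. Of 97 calls of named genes, 94 held with a pseudocount of 0.1, 60 with 1, 97 without an FPKM minimum, 51 with FPKM above 5, 90 as TPM, 94 with the median ratio scaled to 1 and 84 after removal of length and GC trends, and 39 of 40 with the time-course WT column. Of 52 such calls in KO comparisons 15 held under all, and of 45 in the time course 26.

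Counts of guidance genes called moved by more than 1.5 times as follows, in the order days 1, 2 and 3 against ES, *Smad4* KO days 1 and 2, *Eomes* KO, *T* KO and dKO each on days 2 and 3, and WT lines on days 1 and 2. Without an FPKM minimum they were 36, 40, 42, 20, 20, 20, 32, 22, 29, 22, 23, 26 and 16, and 122 calls of partner genes over all comparisons. With FPKM above 5 they were 7, 10 and 11 in the time course, 3 in *Smad4* KO on day 2, 1 and 5 in *Eomes* KO, 3 and 3 in *T* KO, 3 and 2 in dKO, 2 and 0 between WT lines, and 29 for partner genes. With a pseudocount of 1 they were 2 and 4 in *Smad4* KO, 1 and 5 in *Eomes* KO, 4 in *T* KO on day 2, 2 and 2 in dKO, 4 and 1 between WT lines, and 29 for partner genes. With a pseudocount of 0.1, *Smad4* KO on day 1 had 2. Removal of length and GC trends left 6 in dKO on day 2.

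As TPM, the count was 17 on day 1 against ES and 12 in dKO on day 3, and 89 for partner genes. FPKM columns summed to 401510 to 608585, so TPM raised all values while the minimum stayed at 1. More guidance genes were thus examined, 36 rather than 26 on day 1 against ES. In *T* KO and dKO on day 3 it was 41 rather than 33 and 35. Added calls can be of genes newly examined, and the share of all genes called as TPM is not given. TPM moved the median log2 ratio of all genes by -0.42 in dKO and -0.22 in *Eomes* KO on day 2, 0.31 in *Eomes* KO on day 3, 0.11 to 0.16 in the time course, 0.13 in *T* KO on day 2 and -0.11 in dKO on day 3. Lower and higher calls were then 5 and 12 on day 1 against ES (5 and 6 as deposited), 1 and 3 in *Smad4* KO on day 1 (3 and 1), 7 and 2 in *Eomes* KO on day 2 (4 and 2), 7 and 10 on day 3 (6 and 6), 4 and 6 in *T* KO on day 2 (4 and 4), 11 and 1 in *T* KO on day 3 (7 and 2), 15 and 0 in dKO on day 2 (10 and 1) and 10 and 2 on day 3 (5 and 2). The alternatives for WT lines, and the counts over KO comparisons without certain columns (24 and 20 of 37 beside 30), were chosen after seeing the data.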
